A study of Homo sapiens with 62 samples.

Results

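SLAM-seq followed the transcripts of the nuclear genes for the mitochondrial respiratory chain and ATP synthase. The cells were AsPC-1 and T3M-4, pancreatic ductal adenocarcinoma (PDAC) cell lines that model the classical and the basal-like subtype. Members were chosen by symbol: NDUFA, NDUFB, NDUFC, NDUFS or NDUFV with a number, UQCR, COX4 to COX8, and ATP5M, ATP5P or ATP5F, without pseudogenes, and with a mean of at least 50 reads in the DMSO 4 h libraries of both lines. Of 29794 genes in the tables, 111 symbols fitted, 30 of them were pseudogenes, and 71 of the other 81 passed the minimum. These 71 comprise 34 genes of complex I, 9 of complex III, 10 of complex IV and 18 of complex V. The rule used neither the labelling nor the response to any treatment, but it was chosen with earlier results of these data known.

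For SLAM-seq the nucleoside 4-thiouridine (4sU) was given for 2 h, and alkylation makes the incorporated 4sU read as T>C mismatches, so that T>C reads mark newly made RNA. Every cell in the series, controls included, carried a knockout of endogenous KLF5 by guide RNA and a lentiviral KLF5 cDNA fused to FLAG and to the FKBP12-F36V degron, and no cloning of single cells is described. Cells received for 4 h the degrader dTAGv-1 (dTAG), its inactive form (NEG), CB-6644, which inhibits the ATPases RUVBL1 and RUVBL2, NVP-2, which inhibits the kinase CDK9, or the solvent DMSO. The labels spell these dTAGv1, dTAG-NEG, CB6644 and NVP2. AsPC-1 was also treated for 12 h with CB-6644 or DMSO. AsPC-1 had 10 dTAG, 10 NEG, 4 NVP-2, 5 DMSO and 5 CB-6644 libraries at 4 h and 4 of each group at 12 h, and T3M-4 had 4 libraries of each group at 4 h.

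The respiratory chain carries electrons from NADH and succinate through complexes I to IV to oxygen and pumps protons across the inner mitochondrial membrane, and ATP synthase, also called complex V, makes ATP as the protons flow back. The mitochondrial genome encodes a small set of core subunits, and all other subunits are made in the cytosol from nuclear genes and imported. Promoters of these nuclear genes are known for binding sites of NRF1, of the ETS family member GABP and of YY1.

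Promoter sequences, from 250 bases before to 50 bases after an annotated start, were found in RefSeq (GRCh38.p14) for 57 of the 71 members. For 8 of them more than 1 start is listed, and a gene was counted as holding a motif where any of its promoters did. The NRF1 core GCGCATGC, read on both strands, was present in 11 members (19.3%), against 3.7% of all 27305 genes with a promoter and 6.7% of the 9084 of them that passed the same read minimum. The ETS motif CCGGAAGT was in 11 members (19.3%, against 4.9% and 10.9%) and the YY1 motif ATGGCGGC also in 11 (19.3%, against 3.7% and 8.1%). The GC box GGGCGG was in 38 (66.7%, against 48.3% and 78.2%). At least 1 of the NRF1, ETS and YY1 motifs was in 28 members, and 5 held more than 1 of them. The windows below belong to members that recur in the results, printed 5′ to 3′ on the strand of the gene, with the motif or its reverse complement in capitals. The windows of ATP5F1A, NDUFS7 and NDUFA13 lie within the gene as annotated in GENCODE, and that of ATP5F1C runs into it. A match of letters is a description of these windows and shows no binding.
NDUFS7, NRF1 core, chr19:1383823-1383852, plus strand: ttccggtttccGCATGCGCtccgagccgct
ATP5F1C, NRF1 core, chr10:7788146-7788175, plus strand: ggagcttcggcGCATGCGCgctgaggcctg
COX6A1, NRF1 core, chr12:120437928-120437957, plus strand: ggaggtgcagaGCGCATGCtctctcttgcc
NDUFA13, ETS, chr19:19516204-19516233, plus strand: tccgcccgggaCCGGAAGTgtgggatactg
ATP5F1A (at a start inside the gene), ETS, chr18:46098327-46098356, minus strand: cgaggggcagtACTTCCGGgtcaggtgggc
ATP5PD, ETS, chr17:75047053-75047082, minus strand: cccgggaagatACTTCCGGaaccagccctc
NDUFS8, YY1, chr11:68030493-68030522, plus strand: cccaaaccaacATGGCGGCcccctacaaac

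Libraries held 82676553 to 200298262 reads in AsPC-1 and 111132257 to 244524608 in T3M-4, of which 2240998 to 18311982 and 3714015 to 27982537 carried a T>C conversion. The NVP-2 libraries were the shallowest in T>C reads, with 2240998 to 3517345 in AsPC-1 and 3714015 to 4982006 in T3M-4. HNF4A, a classical marker, stood at 12.4 to 22.2 RPM (reads of a gene per 1000000 reads of the library) in AsPC-1 DMSO and at 0.126 to 0.474 in T3M-4, and TP63, a basal-like marker, at 0 to 0.121 and at 18.3 to 28.7. The collagen gene COL1A1, a fibroblast marker, was at 5.95 to 8.79 RPM in T3M-4, while the leukocyte gene PTPRC did not exceed 0.125 in either line. KLF5 was at 32.3 to 49.5 RPM after dTAG and 20.8 to 37.2 in NEG in AsPC-1, and at 261 to 310.3 and 146 to 165 in T3M-4, and since dTAG acts on the protein, these reads do not check the labels. The all-reads column of AsPC-1 dTAG library 3.1 was a copy of another library's T>C column and was left out, which leaves 9 dTAG libraries for all reads and shares in AsPC-1.

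AsPC-1 libraries fell into sets with low (at most 1.55 RPM) and high (at least 19.7) levels of DCLK1, a difference that the labels do not name and that ran through every AsPC-1 group. NDUFA1, NDUFB10 and UQCRC2 are the members on parts of chromosomes X and 16 where AsPC-1 libraries were already known to differ. They were picked for this, so they do not show how far members followed the split. In the batch that the labels number 2, NDUFA1 had 16.5 to 41.1 RPM in the 7 low libraries and 70.6 to 98.4 in the 8 high ones outside NVP-2. NDUFB10 had 48.5 to 112 and 114 to 267, and UQCRC2 67.2 to 118 and 153 to 289.8. In batch 1 the ranges of all 3 genes overlapped. The part of this split in the results was not tested, and the counts below are also given for the low libraries alone where this moved them by over 1.5 times.

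A small part of the reads of respiratory chain genes carried a T>C conversion. The labelled share of a gene is the percentage of its reads that carry a T>C conversion. In DMSO at 4 h the median member had a share of 5.16% in AsPC-1 and 5.89% in T3M-4, with interquartile ranges of 3.49 to 6.83% and 4.35 to 8.46%, against 15.4% and 17.4% for the median of 11565 genes that passed the same minimum. Of the 71 members, 69 lay below the all-gene median in AsPC-1 and 71 in T3M-4. The median over members was 5.66, 5.87, 5.15, 4.89 and 4.91% in the AsPC-1 libraries and 6.76, 6.69, 5.24 and 4.99% in those of T3M-4. Without a library free of 4sU, the background of T>C reads is unknown, and since a new read can lack a conversion, a share is neither the fraction of new RNA nor a half-life.

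Complex I had a median share of 5.45% in AsPC-1 and 6.48% in T3M-4, complex III 4.92% and 5.28%, complex IV 4.34% and 5.27%, and complex V 5.93% and 6.67%. Among lists of related genes that passed the same minimum, the 80 cytosolic ribosomal protein genes were the single list with medians below the members', at 3.72% and 5.42%. The 10 other subunits of the chain that the symbols missed, such as COX4I1 of complex IV, SDHA of complex II and cytochrome c1 (CYC1), were at 5.83% and 7.91%. The 34 proteasome subunits were at 8.52% and 8.93%, the 73 mitochondrial ribosomal proteins at 10.2% and 11.2%, and the 50 assembly factors, which build the complexes but are not part of them, at 12.3% and 14.9%. The 11 regulators of the pathway, such as NRF1 and TFAM, were at 27.8% and 28.4%.

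**Figure D1:**
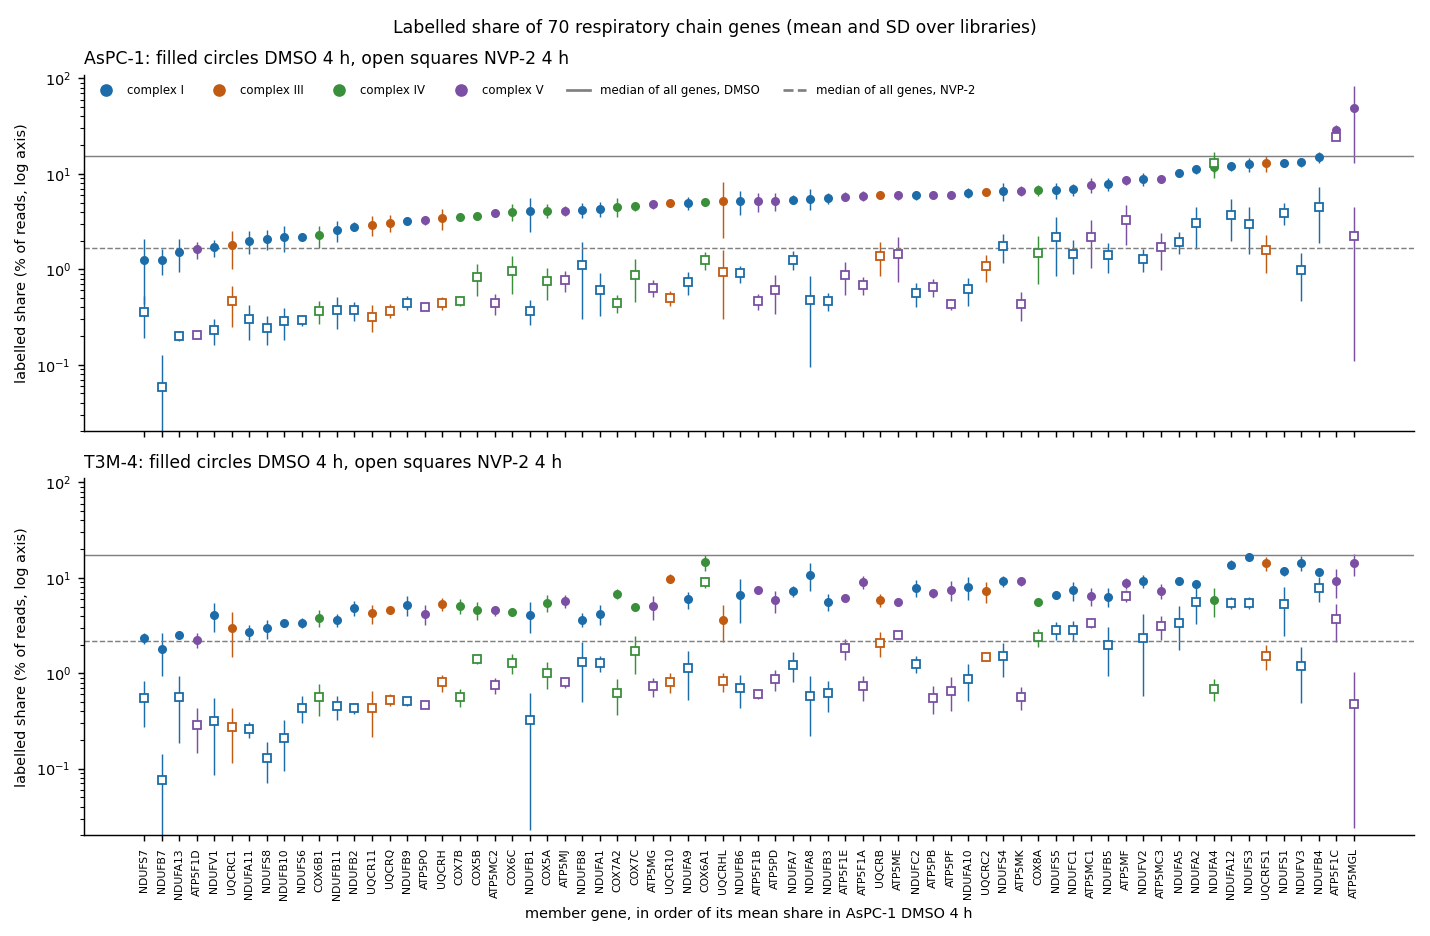
Labelled share of 70 of the 71 members (percent of reads, log axis) in AsPC-1 (top) and T3M-4 (bottom), as mean and SD over 5 or 4 DMSO libraries (filled circles) and 4 NVP-2 libraries (open squares), coloured by complex, with the medians of all genes as grey lines. In DMSO nearly all points lie below the all-gene median, and after NVP-2 nearly all points drop, with NDUFA4 and ATP5F1C in AsPC-1 left near their DMSO values.

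Of the 5 lowest shares in each line, 4 belonged to complex I and 1 to complex V. NDUFS7 (chromosome 19, 1383527 to 1395589, hg38), an iron-sulphur core subunit, had 0.0695, 1.95, 1.93, 0.773 and 1.51% in the AsPC-1 DMSO libraries and 1.99, 2.28, 2.36 and 2.75% in T3M-4. NDUFB7, an accessory subunit, had 1.25% ± 0.390 (SD, n = 5) in AsPC-1, from 7 to 40 T>C reads per library, and 1.79% ± 0.858 (n = 4) in T3M-4. NDUFA13 at 1.52% and NDUFV1, the NADH-binding subunit, at 1.70% ± 0.339 were also low in AsPC-1, as was the delta subunit of ATP synthase, ATP5F1D, at 1.62% ± 0.328. In T3M-4 the same low places were held by NDUFB7, ATP5F1D (2.26%), NDUFS7, NDUFA13 (2.53%) and NDUFA11 (2.73%), whereas NDUFV1 had 5.72, 4.84, 2.99 and 2.84% there. Within each line the ranges over libraries of its 5 lowest genes overlapped in every pair, so their order is not resolved.

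The highest share in AsPC-1, that of ATP5MGL, was unstable. This gene (chromosome 22, 42639803 to 42640601, minus strand), a copy-like relative of ATP5MG for subunit g, lies inside CYB5R3 on the same strand, and its reads may include those of CYB5R3 or ATP5MG. Its share was 8.21, 72.1, 11.5, 70.7 and 80.6% in the AsPC-1 DMSO libraries, from 331 to 416 reads each, and 19.3, 13.8, 10.4 and 13.0% in T3M-4. It was the lowest member that passed the read minimum, with a mean of 374.4 reads in AsPC-1 and 823.2 in T3M-4.

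ATP5F1C (ENSG00000165629.20, chromosome 10, 7788147 to 7807815, plus strand), the gamma subunit that forms the central shaft of ATP synthase, had the highest stable share in AsPC-1. Its libraries were at 25.3, 33.2, 27.2, 32.1 and 28.2%, against 11.7, 12.3, 6.42 and 6.85% in T3M-4, with no overlap. NDUFB4 followed at 12.6 to 17.4% in AsPC-1 and a mean of 11.6% in T3M-4, NDUFV3 at 13.2% and 14.5%, and NDUFS1, the largest core subunit of complex I, at 12.9% and 11.7%. In T3M-4 the top places were NDUFS3, a core subunit whose locus overlaps PTPMT1 on the same strand, at 16.6%, COX6A1 at 14.6% ± 2.80, NDUFV3, the Rieske protein UQCRFS1 at 14.2% and ATP5MGL at 14.2%. Member shares of the lines rose together (Spearman's rho 0.87 over 71 genes, which share annotation and base composition), and 9 of the 10 lowest and 7 of the 10 highest genes were the same.

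A read can show a T>C conversion only where the transcript has a T. The last 250 bases of the members' transcripts held a median of 28.8% T, from 13.2% in NDUFB7 to 42.8% in NDUFA10, against 31.2% for 11563 genes, and the annotated 3′UTR had a median length of 185 bases against 1345. Share and T content rose together among members (Spearman's rho 0.44 in AsPC-1 and 0.43 in T3M-4, n = 71) as they did over all genes (0.40 and 0.36). Within intervals of T content the members had the lower medians: with 25 to 30% T, the 22 members had a median share of 5.18% in AsPC-1 and 6.36% in T3M-4 and all 2249 genes 13.3% and 14.98%, and with 30 to 35% T, the 21 members had 6.64% and 7.38% and all 2923 genes 16.8% and 18.5%. Among the 9 members under 20% T, which include NDUFB7, the medians were 1.78% and 2.73%, against 7.73% and 9.42% for 887 genes. These values are descriptions, and the part of T content in the low shares was not tested.

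**Figure D2:**
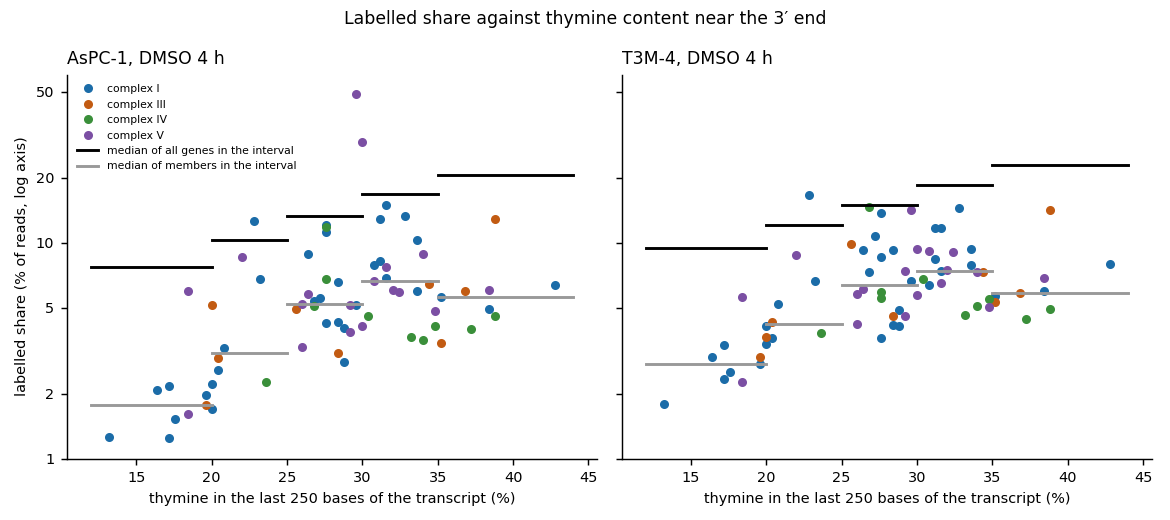
Labelled share in DMSO 4 h (mean over libraries, log axis) against the percentage of T in the last 250 bases of the transcript, 1 point per member, for AsPC-1 (left) and T3M-4 (right). Black bars give the median share of all genes in each interval of T content and grey bars that of the members, which is the lower one in every interval.

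CDK9 releases paused RNA polymerase II, and NVP-2 blocks it, so shares after NVP-2 show how much labelled RNA was still found for each gene. Over whole libraries of AsPC-1 the labelled share was 9.36 to 10.6% in DMSO and 1.35 to 1.91% after NVP-2, and over those of T3M-4 it was 11.1 to 14.1% and 1.80 to 2.80%. The median member was at 0.744% in AsPC-1 after NVP-2 and at 0.829% in T3M-4, and the median of all genes was at 1.69% and 2.19%. By limma on the log2 odds of a T>C read, the share fell in 68 of 71 members in each line, where 94.8% of all genes in AsPC-1 and 90.8% in T3M-4 were called lower and 0.0253% and 0.00763% higher. The median member in AsPC-1 fell by 2.83 on the log2 scale and the median gene by 3.41, and in T3M-4 they fell by 2.81 and 3.58. Every NVP-2 library was below every DMSO library for 67 members in AsPC-1 and 68 in T3M-4, against 89.4% and 89.6% of all genes. In AsPC-1 all NVP-2 libraries are of batch 2 and all DMSO 4 h libraries of batch 1, so that batch and treatment cannot be told apart there, while in T3M-4 both batches hold both groups. Against batch 2 controls of AsPC-1, limma called 70 members lower with the 4 NEG libraries of experiment 3 (93.4% of all genes) and 69 with DMSO at 12 h (92.3%). With batch as a term, 69 were called lower in T3M-4 (91.7% of all genes).

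When each library was centred on its median gene, 28 members were called higher and 0 lower in AsPC-1 by limma, against 15.3% and 11.1% of all genes, and 24 and 0 in T3M-4, against 13.0% and 10.8%. This centring was added after the data were seen. The T>C rate of unlabelled RNA was not measured, and its part in this difference was not tested. These shares and all read levels below describe the composition of a library, and fewer cells cannot be told apart from less RNA per cell.

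Of the 10 members of smallest p for the share after NVP-2, 5 in AsPC-1 and 4 in T3M-4 were subunits of ATP synthase, which holds 18 of the 71 members. ATP5PF, coupling factor 6, went from 6.60, 6.41, 5.63, 5.29 and 6.23% to 0.501, 0.409, 0.370 and 0.459% in AsPC-1 (log2 odds −3.88, SE 0.24, limma adjusted p = 5.43e-07). The catalytic beta subunit ATP5F1B had 5.73, 6.81, 4.31, 4.99 and 3.98% in AsPC-1 DMSO and 0.389, 0.587, 0.429 and 0.444% after NVP-2. In T3M-4 it went from 7.26, 7.98, 6.97 and 7.34% to 0.523, 0.669, 0.596 and 0.612% (−3.73, SE 0.33, limma adjusted p = 3.65e-05). Groups were far apart in both lines. ATP5MK, a small subunit of the membrane part, went from 8.41, 10.7, 8.98 and 8.66% to 0.447, 0.780, 0.505 and 0.508% in T3M-4 (−4.19, SE 0.35, limma adjusted p = 3.25e-05) and changed by −4.09 in AsPC-1. ATP5MGL had the lowest log2 odds of all members, −5.66 and −5.91, from controls of 8.21 to 80.6% in AsPC-1 and from 0 T>C reads in 2 of the 4 NVP-2 libraries of T3M-4, where the value depends on the 0.5 added to both counts.

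The members not called after NVP-2 were 3 in each line, none of them shared. NDUFA4 (ENSG00000189043.10, chromosome 7, 10931943 to 10940153, minus strand, with no overlapping gene), now counted as a subunit of complex IV, had 13.6, 10.7, 13.5, 11.7 and 9.82% in AsPC-1 DMSO and 10.9, 14.96, 8.58 and 17.2% after NVP-2 (log2 odds 0.10, SE 0.27, limma adjusted p = 0.726). The groups overlapped, and the interval of the difference was −0.43 to 0.63. Against the batch 2 controls it was not called either (−0.08 and −0.30 for NEG of experiment 3 and DMSO at 12 h, limma adjusted p = 0.83 and 0.494). In T3M-4 its share was 7.18, 7.93, 3.99 and 4.46% in DMSO and 0.508, 0.757, 0.908 and 0.580% after NVP-2, well apart. Background T>C reads of NDUFA4, and of ATP5F1C below, were not measured in either line, and their part was not tested.

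ATP5F1C in AsPC-1 had 26.4, 24.7, 22.8 and 23.5% after NVP-2 against 25.3 to 33.2% in DMSO, with overlap in 1 library (log2 odds −0.35, SE 0.18, limma adjusted p = 0.0829). It was called lower against NEG of experiment 3 (−0.43, limma adjusted p = 0.0354) and not against DMSO at 12 h (−0.33, limma adjusted p = 0.0859). In T3M-4 it had 5.12, 4.95, 1.89 and 2.88% after NVP-2, below each of the DMSO libraries at 6.42 to 12.3%. NDUFS7 was the third gene not called in AsPC-1 (−1.29, SE 0.98, limma adjusted p = 0.222), with 4 to 230 T>C reads per DMSO library. In T3M-4 the genes not called were the complex I accessory subunits NDUFA2 (−0.75, SE 0.37, limma adjusted p = 0.0774) and NDUFB4 (−0.66, SE 0.32, limma adjusted p = 0.0788) and subunit f of ATP synthase, ATP5MF (−0.46, limma adjusted p = 0.159), whose locus overlaps PTCD1 and CPSF4. With batch as a term NDUFB4 was called there. NDUFB4 had 7.13, 11.2, 5.76 and 7.50% after NVP-2 in T3M-4 against 12.2, 12.1, 11.5 and 10.8% in DMSO, and 8.08, 5.14, 2.97 and 2.03% in AsPC-1 against 12.6 to 17.4%.

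COX6A1 (chromosome 12, 120438090 to 120440737, plus strand), a subunit of complex IV whose locus overlaps another gene, was called lower in both lines by different amounts, and the difference was not tested. It went from 5.37, 5.26, 5.15, 5.12 and 4.66% to 1.62, 1.13, 1.31 and 0.962% in AsPC-1 (−2.11, SE 0.23, limma adjusted p = 1.33e-05). In T3M-4 it went from 18.0, 15.7, 12.3 and 12.3% to 9.65, 8.12, 7.79 and 10.3% (−0.78, SE 0.31, limma adjusted p = 0.0378). As a percentage of the DMSO share, a median of 14.9% was left over the members in AsPC-1 and 15.2% in T3M-4. The most was left of NDUFA4 (108.8%), ATP5F1C (83.4%) and ATP5MF (38.3%) in AsPC-1 and of ATP5MF (74.4%), NDUFB4 (67.9%), NDUFA2 (64.9%) and COX6A1 (61.5%) in T3M-4.

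**Figure D3:**
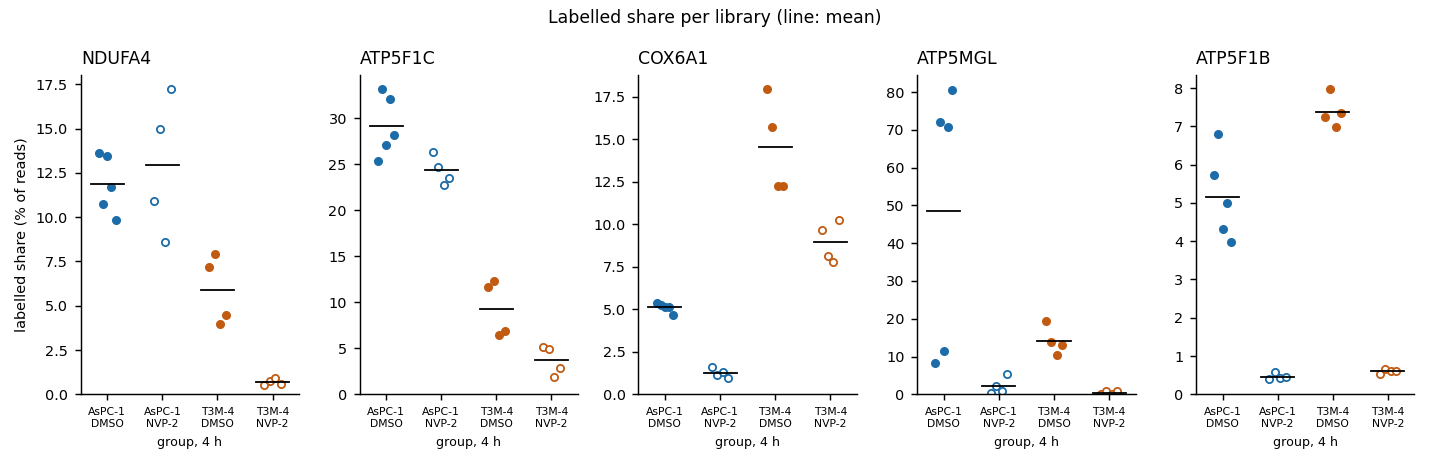
Labelled share per library (percent of reads, 1 point per library, line at the mean) of NDUFA4, ATP5F1C, COX6A1, ATP5MGL and, for contrast, ATP5F1B in DMSO (filled) and NVP-2 (open) at 4 h in AsPC-1 (blue) and T3M-4 (orange). NDUFA4 and ATP5F1C stay near their DMSO values after NVP-2 in AsPC-1 and lie below all DMSO points in T3M-4, while ATP5F1B drops to below 1% in both lines.

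Counts of T>C reads give the same data relative to the other labelled transcripts. Values are CPM (counts per 1000000) after edgeR's TMM scaling within a comparison, which sets the typical gene to no change. On this scale 32 members were higher and 1 lower after NVP-2 in AsPC-1 by edgeR's quasi-likelihood test, against 12.9% of all genes higher and 17.6% lower, and the median member stood at a log2 fold change of 0.78 against −0.05 for the median gene. In T3M-4, 22 members were higher and 1 lower, against 12.4% and 14.2%, with medians of 0.35 and −0.12. These directions turn with the scaling: with library sizes taken from all reads, the median gene shifted by −3.26 (AsPC-1) and −3.09 (T3M-4), 68 and 66 members were called lower and 0 higher, and the median member was at −2.42 and −2.69, still above the median gene. The share of all genes called lower with these library sizes is not given. Since the median gene fell further, these counts do not set the members apart. Members took 1.11 to 1.29% of T>C reads in AsPC-1 DMSO and 1.99 to 2.32% after NVP-2, and 1.05 to 1.22% and 1.81 to 1.91% in T3M-4.

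The higher genes came from every complex. In AsPC-1 they were 16 of complex I, 2 of complex III, 8 of complex IV and 6 of complex V, and complex IV had the highest median log2 fold change, 1.3, against 0.85, 0.61 and 0.37 in complexes I, III and V. In T3M-4 the numbers were 11, 1, 4 and 6 with medians of 0.60, 0.22, 0.77 and 0.25 in complexes I, III, IV and V. Groups did not overlap for 27 members in either line: NVP-2 was above DMSO in 24 and below it in 3 in AsPC-1, against 10.2% and 18.2% of all genes, and above in 23 and below in 4 in T3M-4, against 13.1% and 21.2%. With counts summed per experiment, 13 members were called higher and 0 lower in AsPC-1 by edgeR, against 2.95% and 5.36% of all genes, and 0 in T3M-4, where 0% of all genes were called and 23 members had an unadjusted p under 0.05. The share of all genes at that unadjusted p is not given. Against the batch 2 controls of AsPC-1, edgeR called 27 members higher and 1 lower with NEG of experiment 3 (12.7% and 15.7% of all genes) and 25 and 0 with DMSO at 12 h (10.6% and 14.4%). Within T3M-4, the median member was at −0.09 in batch 1 and at 0.72 in batch 2.

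NDUFA4 had the highest change in AsPC-1. Its T>C CPM were 85.6, 106, 102.5, 132 and 85.2 in DMSO and 802, 733, 1026 and 1771 after NVP-2 (log2 fold change 3.404, SE 0.29, edgeR adjusted p = 4.03e-05). On the scale of all reads the change was 0.14. Against the batch 2 controls it was 3.07 (NEG of experiment 3, edgeR adjusted p = 0.000438) and 3.22 (DMSO at 12 h, edgeR adjusted p = 0.0005). In T3M-4 the change was 0.19 (SE 0.42, edgeR adjusted p = 0.774), from 47.3, 52.3, 50.5 and 56.5 CPM to 29.5, 33.4, 113.9 and 59.4, with overlap. The difference between the lines was tested as an interaction term in 1 fit and was −3.24 (T3M-4 minus AsPC-1, SE 0.51, edgeR adjusted p = 0.00298). NDUFA4 was the only member called there by edgeR, where 0.296% of all genes were called higher and 0.555% lower. Batch differs between the AsPC-1 groups of this test and not between those of T3M-4. With batch as a term, taken as equal in both lines, the difference for NDUFA4 was −2.63 (edgeR adjusted p = 0.00741), and edgeR called 5 members, ATP5MC1, ATP5MC3 and COX8A as higher and COX5A and NDUFA4 as lower, against 3.2% and 2.34% of all genes. DESeq2, without that term, called 4 members, NDUFA4, ATP5F1C and NDUFS8 as lower and ATP5MC3 as higher. The share of all genes that DESeq2 called is not given.

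ATP5F1C stood next, with 542, 583, 646, 661 and 672 CPM in AsPC-1 DMSO and 5422, 2494, 5932 and 5399 after NVP-2 (2.95, SE 0.26, edgeR adjusted p = 4.37e-05), or −0.26 on the scale of all reads. In T3M-4 it changed by 1.70 (edgeR adjusted p = 0.000821), or −1.31 on that scale, and the difference between lines, −1.27, did not pass (edgeR adjusted p = 0.0737). Also higher in both lines on the T>C scale, and lower on the scale of all reads, were, among others, COX6A1 (1.67 and 2.51, against −1.55 and −0.62) and the complex I subunit NDUFS5 (1.92 and 2.15, against −1.26 and −0.91). In AsPC-1, COX6A1 went from 62.5, 61.6, 73.1, 70.9 and 66.0 CPM to 221, 145, 263 and 221. In T3M-4 it went from 250.3, 201, 159 and 157 to 1269, 629.7, 1277 and 1205.

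Further genes among the 10 of smallest p in AsPC-1 were COX5A (1.51), COX5B (1.41), NDUFS1 (1.61), NDUFS4 (1.29) and ATP5MC1 (1.37), 1 of the genes for the c ring of ATP synthase, and all were lower on the scale of all reads (−1.60 or below). In T3M-4 they were NDUFA2 (2.53), NDUFB4 (2.52), ATP5MF (2.26), COX8A (2.05), ATP5MC3 (1.92) and NDUFA12 (1.67), at −0.45 to −1.41 on that scale. NDUFA2 went from 26.4, 32.1, 36.4 and 37.3 CPM to 126, 222, 196 and 218 in T3M-4 (SE 0.29, edgeR adjusted p = 0.000417). Single lower genes were NDUFV3 in AsPC-1 (−0.92, SE 0.26, edgeR adjusted p = 0.0207), with 31.6 to 39.6 CPM in DMSO and 14.2 to 23.8 after NVP-2, and NDUFS8 in T3M-4 (−1.34, SE 0.44, edgeR adjusted p = 0.0454), with 31.8 to 37.9 and 7.06 to 26.9. NDUFS8 was at 1.15 in AsPC-1, not called (edgeR adjusted p = 0.0767), and its difference between lines was −2.52 (edgeR adjusted p = 0.0793).

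Related lists held calls in both directions on the T>C scale. Over all genes, edgeR called 1488 of 11498 higher and 2018 lower in AsPC-1, and 1523 of 12242 and 1740 in T3M-4. Of 78 cytosolic ribosomal protein genes tested in AsPC-1, 36 were higher and 6 lower, and in T3M-4 23 and 8 of 79. The 50 assembly factors were split evenly, 9 higher and 10 lower in AsPC-1 and 9 and 9 in T3M-4, with the complex IV factor SURF1 higher (1.69 and 2.02) and PET117 lower (−2.56 and −3.61) in both. Of 11 regulators, 0 were higher by edgeR, and 6 were lower in AsPC-1 and 3 in T3M-4, among them the coactivator PPRC1 (−2.46 and −2.95) and the mitochondrial transcription factor TFAM (−1.74 and −1.81). Proteasome subunits gave 8 higher and 0 lower of 34 in AsPC-1 and 6 and 1 in T3M-4, mitochondrial ribosomal proteins 9 and 18 of 72 and 9 and 10, and the other subunits of the chain 4 and 0 of 10, among them SDHC (1.53) and CYC1 (1.33), and 2 and 0. On the scale of all reads, 0 genes of any list were higher in either line by edgeR, and lower were 74 of 78 cytosolic ribosomal proteins, 49 of 50 assembly factors and 11 of 11 regulators in AsPC-1 and 73 of 79, 46 of 50 and 11 of 11 in T3M-4. The median gene fell on that scale too, so these counts are not particular to the lists.

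All reads count old and new transcripts together. In all reads, 12 members were higher and 0 lower after NVP-2 in AsPC-1 by edgeR, against 3.43% of all genes higher and 8.39% lower. The median member was at a log2 fold change of 0.49 against 0.06, and 67 of 71 were above 0. An unadjusted p under 0.05 was found for 33 members and for 27.45% of all genes. By complex the 12 were 9 of complex I, 1 of complex III (UQCRQ) and 2 of complex IV (COX5A and COX6A1), and 0 of complex V by edgeR. COX5A, a structural subunit, had 108, 109, 170.4, 110.2 and 123 CPM in DMSO and 239, 255, 219.8 and 262 after NVP-2, without overlap (0.97, SE 0.17, edgeR adjusted p = 0.00545). UQCRQ followed with 369, 386, 466.2, 444 and 399.6 CPM in DMSO and 629.8, 721, 601 and 744 after NVP-2 (0.71, SE 0.15, edgeR adjusted p = 0.0117).

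These calls came from a comparison across batches, and the part of batch in them was not tested. Against batch 2 controls, 0 members were called by edgeR (0.253% of all genes higher with NEG and 0.0280% with DMSO at 12 h), with a median of 0.34 against the 4 NEG libraries of experiment 3 and of 0.38 against DMSO at 12 h, and 3 members in each had an unadjusted p under 0.05. DESeq2 called 23 in the comparison with DMSO at 4 h. The low DCLK1 libraries alone gave 5, against 1.93% of all genes higher. Without NVP-2 library 1.1 the count was 23, and it was 11 without DMSO library 1.3, 9 without NVP-2 library 2.1, 6 without DMSO library 1.1 or NVP-2 library 1.2, 4 without DMSO library 1.2 or 2.1, and 2 without DMSO library 2.2 or NVP-2 library 2.2. Shares of all genes are not given for DESeq2, the left-out libraries or the unadjusted p, so these counts show only how far the number moved. NVP-2 libraries lay above DMSO for 9 members and below it for 0, against 4.40% and 10.7% of all genes.

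The highest changes of all reads in AsPC-1 were in genes with scattered libraries. NDUFB7 had 17.8, 14.7, 7.21, 21.5 and 17.4 CPM in DMSO and 13.2, 88.9, 37.9 and 58.3 after NVP-2 (1.66, SE 0.46, edgeR adjusted p = 0.0417), and ATP5F1D, at 1.53, was not called (edgeR adjusted p = 0.0551). NDUFA13 (1.25), NDUFS8 (1.22) and NDUFB11 (1.12) were called, each with NVP-2 library 1.1 within the range of DMSO. NDUFA11, NDUFA10, NDUFS6, NDUFS5, COX6A1 and NDUFB8, at 0.61 to 0.92, complete the 12. The lowest were UQCRHL (−1.17, edgeR adjusted p = 0.282), ATP5MGL (−0.59), NDUFV3 (−0.09), NDUFB4 (−0.05) and NDUFC1 (0.02), and none of these 5 was called by edgeR.

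In T3M-4, where DMSO and NVP-2 share batches, 0 members were called in all reads by edgeR, against 0.243% of all genes higher and 4.91% lower. The median member was at 0.20 against 0.06, and 7 members had an unadjusted p under 0.05, against 16.23% of all genes. DESeq2 called 4 members, for which the share of all genes is not given. NDUFB10 had the smallest p, with 86.2, 74.2, 94.2 and 96.6 CPM in DMSO and 118, 132, 144 and 130.3 after NVP-2, without overlap (0.58, SE 0.15, edgeR adjusted p = 0.0581). NDUFB7 (0.81), NDUFS7 (0.71), COX5B (0.58) and NDUFA10 (0.57) were the other high values, and UQCRHL (−0.82), ATP5MF (−0.31), COX6C (−0.24), UQCRFS1 (−0.20) and ATP5MGL (−0.17) the lowest. The 0 depended on how batches and replicates entered the fit, all by edgeR and all higher. With batch as a term 11 members were called (5.95% of all genes higher), with the replicate number as a block 14 (7.0%), in batch 2 alone 19 (6.78%) and in batch 1 alone 0 (0.0438%), with 3 members there at an unadjusted p under 0.05.

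After degradation of KLF5, no respiratory chain transcript passed the threshold in T>C reads of either line without a replicate block. In AsPC-1, 0 members were called by edgeR and 0 by DESeq2, where edgeR called 0.462% of all genes higher and 1.94% lower. An unadjusted p under 0.05 was found for 12.08% of all genes and for 2 members. These were ATP5F1C, with 660 to 1044 CPM (median 785) in NEG and 652 to 1141 (median 1008) after dTAG (0.31, SE 0.11, edgeR adjusted p = 0.202), and NDUFA4, with 112 to 223 (median 150.5) and 139 to 301 (median 186; 0.35, SE 0.16, edgeR adjusted p = 0.365). Ranges overlapped in both. With the replicate number as a block both were called (edgeR adjusted p = 0.0253 and 0.00548), and with library sizes from all reads 2 other genes, ATP5PO (−0.36) and UQCRB (−0.37), were called lower. The third smallest p was that of NDUFC1 (0.31, edgeR adjusted p = 0.456). The median member was at 0.06 against 0.03 for the median gene, and the 95% interval lay within −1 and 1 for 69 of 71 members.

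All reads gave 0 calls after dTAG in AsPC-1 by edgeR and by DESeq2, against 0.115% of all genes higher and 0.682% lower. An unadjusted p under 0.05 was found for 0 members and for 7.58% of all genes. The smallest p was that of ATP5F1A, the alpha subunit of ATP synthase (0.18, SE 0.10, edgeR adjusted p = 0.747), and the median member was at 0.01, as was the median gene. In T3M-4, T>C reads gave 0 calls by either tool and 0 members at an unadjusted p under 0.05 (background 0.0894% higher, 0.745% lower), and so did all reads (0.00636% and 0.0127%). Over all genes, 7.129% in T>C reads and 3.389% in all reads had an unadjusted p under 0.05. ATP5MG for subunit g had the smallest p in both, with 661, 566, 705 and 565 T>C CPM in NEG and 1551, 810, 752 and 506 after dTAG, where library 1.1 stood apart from the other 3 (0.53, SE 0.30, edgeR adjusted p = 0.87). The difference between lines was called for 0 members by edgeR and DESeq2, with 0 at an unadjusted p under 0.05 by edgeR, against 0.00710% of all genes higher and 0.0355% lower. By edgeR, 5.849% of all genes had an unadjusted p under 0.05 for this difference.

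Labelled shares were lower after dTAG in AsPC-1, in members and over all genes. After dTAG the member median was 3.75 to 4.75% over libraries (median 4.41%), against 4.07 to 5.61% (median 5.27%) in NEG, and the all-gene median 11.4 to 13.2% against 12.5 to 15.5%. By limma, 15 members were called lower and 0 higher, where 38.0% of all genes were called lower and 0.0410% higher. The median member was at −0.22 and the median gene at −0.33. Centred on the median gene, 0 members were called by limma, against 0.0574% of all genes higher and 0.541% lower. ATP5PD, the d subunit of the peripheral stalk, had 4.05 to 5.61% (mean 4.94 ± 0.537, SD, n = 10) in NEG and 3.34 to 4.48% (3.85 ± 0.326, n = 9) after dTAG, with overlap (−0.37, SE 0.09, limma adjusted p = 0.00543). Means went from 5.91% to 4.68% in NDUFC2 (−0.36), from 5.97% to 4.20% in NDUFB3 (−0.55) and from 6.69% to 5.38% in ATP5F1A (−0.33). NDUFA12 (−0.54), NDUFV3 (−0.38), ATP5F1B (−0.31), COX7A2 (−0.35), NDUFA1 (−0.32) and ATP5MG (−0.23) were called as well. The count was 10 with the replicate block (37.8% of all genes lower), 0 without experiment 1 (1.04%), 5 without experiment 2 (19.7%), 12 without experiment 3, which leaves batch 1 (36.3%), 0 in batch 2 alone (0.0163%), and 9 in the low DCLK1 libraries (29.3%).

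In T3M-4 no member share was called. The member median was 6.44, 6.44, 6.10 and 6.22% after dTAG and 6.07, 6.05, 5.42 and 5.85% in NEG. By limma 0 members were called, against 0.00749% of all genes higher and 0.0150% lower. An unadjusted p under 0.05 was found for 0 members and for 6.662% of all genes. ATP5PD had means of 5.58% in NEG and 5.86% after dTAG there, and NDUFB3, the member with the smallest p, 5.57% and 6.85% (0.32, SE 0.18, limma adjusted p = 0.808). The difference in share between lines was not tested.

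CB-6644 gave no call among the members in any measure, line or time, and it gave at most 2 calls among all genes in any single one of these comparisons. In AsPC-1 at 4 h, 0 members were called in T>C reads by edgeR and DESeq2 and 2 had an unadjusted p under 0.05 (background 0% in both directions). ATP5F1C was again the smallest, with 649.9, 704, 782, 796 and 804 CPM in DMSO and 853, 1133, 1035, 769 and 957 after CB-6644 (0.35, SE 0.14, edgeR adjusted p = 0.979), and ATP5F1D was next at −1.03. All reads gave 0 calls by both tools with 1 unadjusted p under 0.05, in NDUFV3 (0.34; background 0% both ways), and shares 0 calls by limma with 5, the smallest in NDUFC2 (−0.38, limma adjusted p = 0.17; background 0.00833% higher, 0% lower). Member median shares were 3.97, 4.14, 4.48, 4.73 and 5.25% after CB-6644 and 4.89 to 5.87% in DMSO. The median member differed by −0.20 in share and the median gene by −0.27. Over all genes, 4.138% in T>C reads, 1.922% in all reads and 22.27% in shares had an unadjusted p under 0.05 in this comparison.

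At 12 h in AsPC-1, 0 members were called in T>C reads by edgeR and DESeq2 (background 0% both ways), and ATP5MC2, 1 of the c ring genes, was the single gene with an unadjusted p under 0.05 (−0.59, SE 0.24, edgeR adjusted p = 0.998). All reads and shares gave 0 calls and 0 members at that level by edgeR and limma, with 0 by DESeq2 in all reads and backgrounds of 0% both ways in all reads and of 0% higher and 0.00799% lower in shares. In T3M-4, T>C reads gave 0 calls by edgeR and DESeq2 (background 0% both ways) with 2 unadjusted p under 0.05, in NDUFV1 (0.65, edgeR adjusted p = 0.994) and NDUFB7 (1.47). All reads gave 0 calls by both tools with 1, in NDUFB7, which had 15.2, 12.5, 23.8 and 18.4 CPM in DMSO and 42.6, 64.2, 15.8 and 24.1 after CB-6644 (1.07; background 0.0127% higher, 0% lower), and shares gave 0 by limma with 0 at that level (background 0% both ways). The difference between lines was called for 0 members by edgeR and DESeq2 with 4 unadjusted p under 0.05 (background 0% both ways). Over all genes at 12 h, 3.876% in T>C reads, 2.257% in all reads and 4.387% in shares had an unadjusted p under 0.05. In T3M-4 it was 4.232%, 2.874% and 2.756%, and 3.66% for the difference between lines. The 95% interval in T>C reads lay within −1 and 1 for 63 of 71 members in AsPC-1 at 4 h, 61 at 12 h and 63 in T3M-4.

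**Figure D4:**
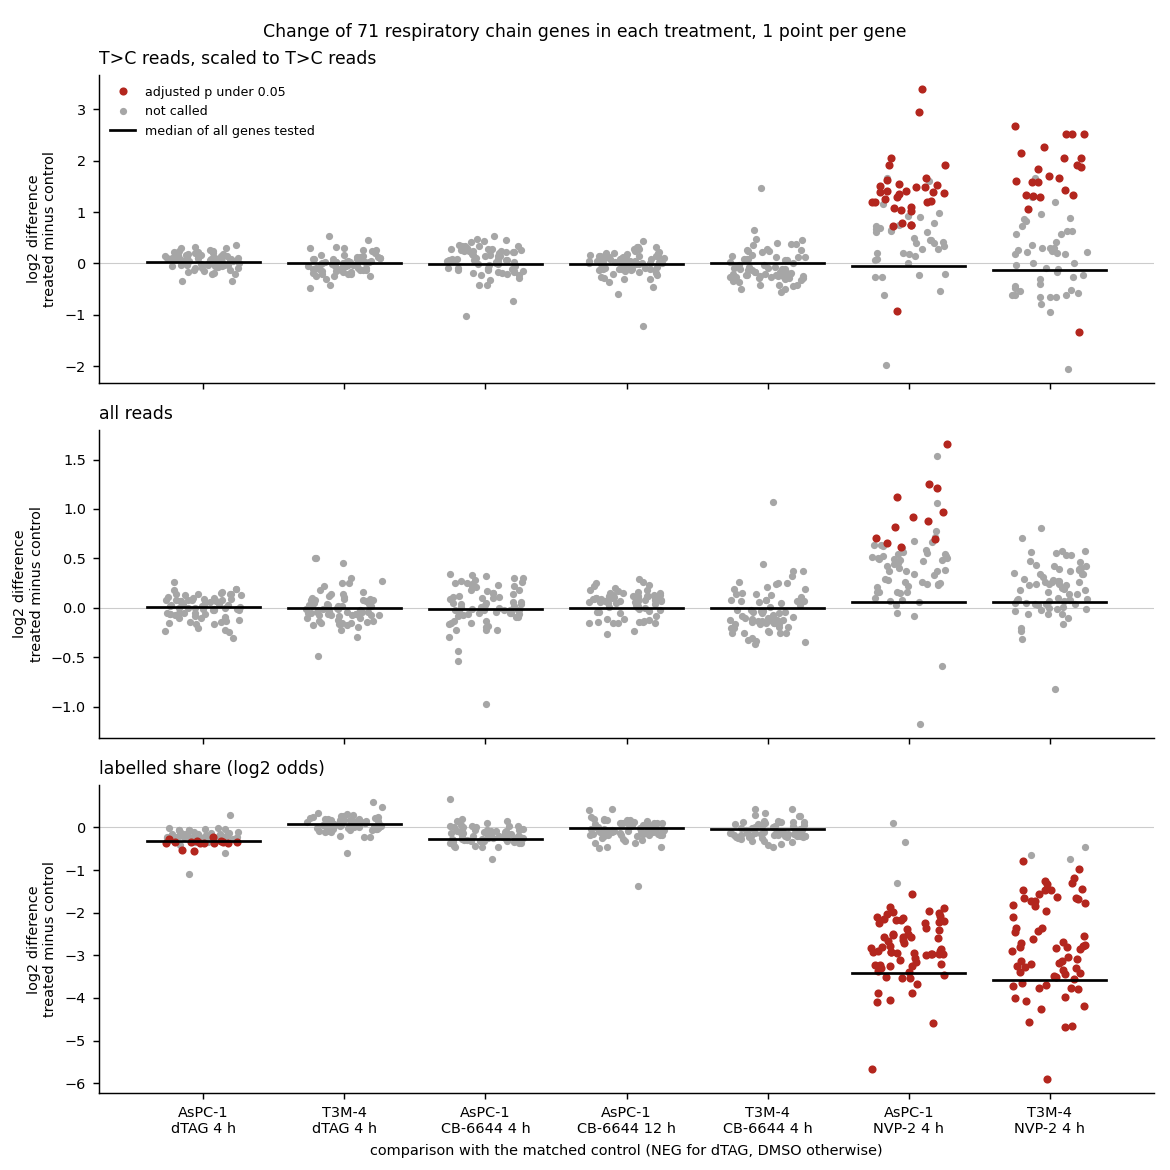
Log2 difference of treated minus control for each of the 71 members (1 point each) in T>C reads scaled to T>C reads (top), all reads (middle) and labelled share as log2 odds (bottom), for the 7 comparisons of a treatment with its control; red points have an adjusted p under 0.05 and black bars mark the median of all genes. After dTAG and CB-6644 the only red points are 15 lower shares in AsPC-1, and points not called reach −1.23 and 1.47 in T>C reads. After NVP-2 shares fall while T>C reads lie mostly above 0 on this scale, which turns to below 0 for 68 and 66 called members when scaled by all reads. The median of all genes also lies below 0 when scaled by all reads.

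Members were called between the untreated lines in all reads no more often than all genes. In all reads at DMSO 4 h, 19 members were higher and 12 lower in T3M-4 than in AsPC-1 by edgeR, against 30.5% and 25.2% of all genes. The median member was at 0.26 and the median gene at 0.09. Complex I gave 9 higher and 6 lower, complex III 1 and 0, complex IV 3 and 2, and complex V 6 and 4. Libraries did not overlap for 14 members higher and 10 lower, against 26.8% and 21.3% of all genes. With T3M-4 libraries of batch 1 only, 17 and 9 were called, against 25.6% and 21.2%.

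Of the 5 highest genes 4 were of ATP synthase, and of the 5 lowest 1 was. ATP5MC1 (chromosome 17, 48892765 to 48895871, plus strand) had 238, 268, 215, 325 and 263 CPM in AsPC-1 and 509, 741, 1515 and 1393 in T3M-4 (1.99, SE 0.30, edgeR adjusted p = 0.000264), and its values in T3M-4 followed the batches. ATP5F1B (chromosome 12, 56638175 to 56645984, minus strand) had 63.7, 66.7, 101.6, 70.3 and 66.0 and 179.6, 201, 228 and 208 (1.47, SE 0.17, edgeR adjusted p = 3.89e-05). ATP5MC2 (1.37), the complex I subunit NDUFA9 (1.29) and ATP5PD (1.22) followed. In the other direction, ATP5F1A (chromosome 18, 46080248 to 46104334, minus strand) had 273, 289, 328, 285 and 287 CPM in AsPC-1 and 154, 104, 97.8 and 106 in T3M-4 (−1.34, SE 0.16, edgeR adjusted p = 6.21e-05). Alpha and beta subunits of the same catalytic hexamer thus differed in opposite directions, with no overlap between the lines in either. NDUFB2, whose locus overlaps BRAF on the other strand, was the lowest with 599, 494, 1048, 535 and 593 against 299, 256, 170.3 and 165 (−1.55, SE 0.28, edgeR adjusted p = 0.000724), and NDUFS1 (−1.07), NDUFB6 (−0.99) and NDUFA1 (−0.89) followed. NDUFA1 and NDUFB2 were also lower in every T3M-4 library of batch 2 than of batch 1 outside NVP-2, as 11 members were, and 4 were higher.

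The labelled share differed between lines in 8 members by limma, 6 higher and 2 lower in T3M-4, against 13.4% and 1.23% of all genes. COX6A1 had 5.11% ± 0.270 (SD, n = 5) in AsPC-1 and 14.6% ± 2.80 (n = 4) in T3M-4 (log2 odds 1.64, SE 0.19, limma adjusted p = 0.00113), and NDUFV1 (1.26), UQCR10 (1.07), NDUFA8 (1.01), NDUFB2 (0.82) and ATP5F1A (0.66) were the other higher genes. The lower ones were ATP5F1C (29.2% ± 3.34 against 9.31% in T3M-4, −2.06, SE 0.26, limma adjusted p = 0.00155) and NDUFA4 (11.9% ± 1.68 against 5.89% in T3M-4, −1.16, SE 0.26, limma adjusted p = 0.0171), both also among the genes whose share was not called after NVP-2 in AsPC-1. In T3M-4 DMSO the shares of ATP5F1C and NDUFA4 were lower in batch 2 than in batch 1. Member medians there were 6.76 and 6.69% in batch 1 and 5.24 and 4.99% in batch 2, while all AsPC-1 DMSO 4 h libraries are of batch 1. The median member and the median gene were at 0.29 and 0.30. Without AsPC-1 library 1.1, 1.3, 2.1 or 2.2 or T3M-4 library 1.1 or 1.2, 4 members were called in place of 8, 2 higher and 2 lower, and centred on the median gene 5 and 5, against 10.4% and 5.22% of all genes. Shares of all genes are not given for the left-out libraries.

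**Figure D5:**
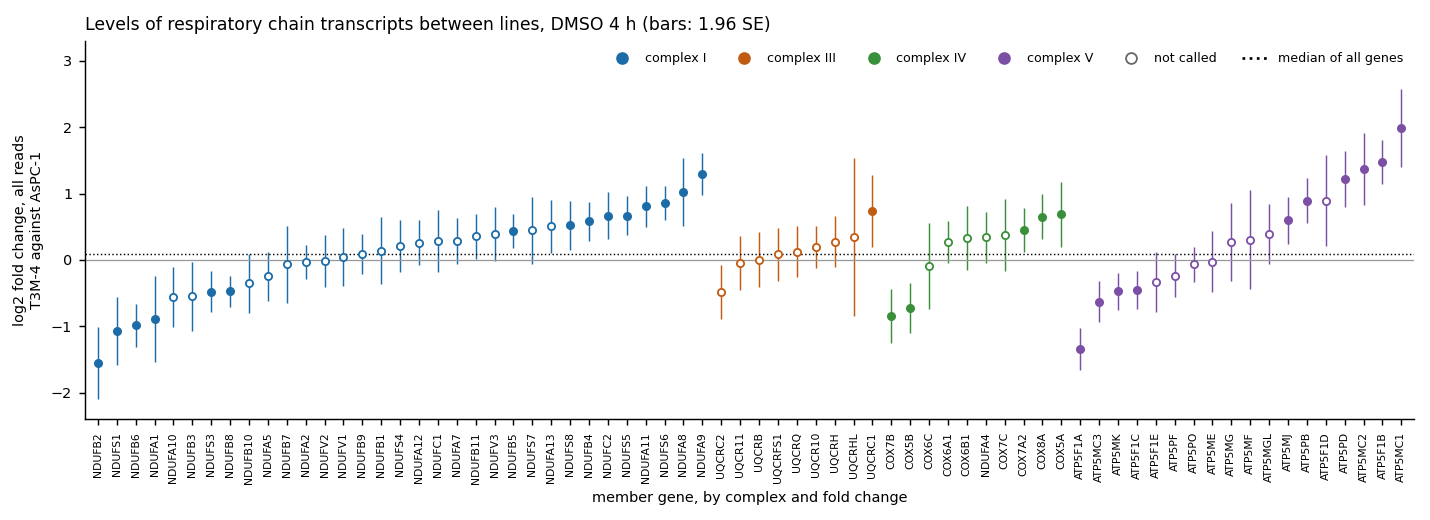
Log2 fold change of all reads in T3M-4 against AsPC-1 (DMSO 4 h) for 70 of the 71 members, grouped by complex and ordered by fold change, with bars for the 95% interval; filled points are called by edgeR, open points are not, and the dotted line is the median of all genes at 0.09. ATP5MC1 at 1.99 and NDUFB2 at −1.55 mark the ends, and each of complexes I, IV and V has called genes on both sides of 0.

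Other genes of the pathway were also called between the lines in all reads, where edgeR called 4718 of 15464 genes higher and 3899 lower. Of 50 assembly factors 16 were higher and 6 lower in T3M-4 by edgeR, of 11 other subunits 4 and 1, with the ATP synthase inhibitor ATP5IF1 at a log2 fold change of 1.06, and of 12 regulators 1 and 2, with TFAM at −1.20. NDUFA4L2, a relative of NDUFA4, and PPARGC1A, the coactivator PGC-1α, were called higher from few reads: both had 0 reads in each AsPC-1 library, where 0 allows up to 0.0363 RPM, and 20 to 40 and 13 to 52 reads in T3M-4 (0.122 to 0.314 and 0.102 to 0.305 RPM). Cytosolic ribosomal proteins gave 24 and 12 of 82, mitochondrial ribosomal proteins 29 and 6 of 74, and proteasome subunits 15 and 3 of 36.

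Of the tissue forms of complex IV subunits, most had few or no reads, with COX6B2 in T3M-4 the highest. The muscle forms COX6A2 and COX7A1 and the testis form COX8C had 0 reads in every DMSO 4 h library of both lines, which allows up to 0.0363 RPM in AsPC-1 and 0.0235 in T3M-4 from counting error alone, while the broad forms COX6A1, COX7A2 and COX8A were at 141 to 173, 183 to 205 and 67.6 to 106 RPM in AsPC-1. COX7B2 had 0 reads in AsPC-1 and 0.347 to 1.88 RPM in T3M-4. COX6B2, known from testis, stood at 0 to 0.716 and 4.66 to 9.05, and with a mean of 49.2 reads in AsPC-1 it was the candidate just below the minimum. NDUFA3, with a mean of 7.6 reads in AsPC-1 and 18.5 in T3M-4, and NDUFA6, with 2.2 and 4.75, also missed it, as did the readthrough ATP5MF-PTCD1 (0 in both) and the non-coding UQCRB-AS1 and UQCRFS1-DT (3.75 to 6 reads).

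The c ring of ATP synthase is encoded by ATP5MC1, ATP5MC2 and ATP5MC3. In T3M-4 ATP5MC1 had 533, 751, 1587 and 1446 RPM and ATP5MC2 640.1, 818, 1337 and 1306, against 199.9 to 316 and 258 to 573 in AsPC-1, while ATP5MC3 was at 266 to 304 in T3M-4 and 345 to 529.5 in AsPC-1. UQCRH, the hinge protein of complex III, had 255 to 348 and 282 to 444, and UQCRHL, its copy on chromosome 1, 7.64 to 71.7 and 28.2 to 53.7, which may share reads with UQCRH. The same holds for ATP5MGL at 2.61 to 4.72 and 4.13 to 5.50 and ATP5MG at 690.1 to 1824 and 1327 to 1929. Levels are not compared between genes, since a read can be counted more than once in some of them: all counts of NDUFB1 and NDUFB3 were multiples of 5 and 6.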

How the data were processed

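SLAM-seq was performed on 62 libraries (AsPC-1 42, T3M-4 20), from 3′ end (QuantSeq) libraries. The deposited values are counts: the authors ran slamdunk with default settings on hg38, with 3′UTR exons of GENCODE v44, and summed per gene all reads and the reads with a T>C conversion. Empty columns (18) were not used, and there were 0 columns of other series. The all-reads column of AsPC-1 dTAG library 3.1 equalled the T>C column of AsPC-1 DMSO 12 h library 2 and was left out. No spike-in was used here.

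T>C and all reads were tested with edgeR 4.0.16 (filterByExpr, TMM, glmQLFit and glmQLFTest) and shares with limma 3.58.1 (trend, robust) on log2((T>C + 0.5)/(all − T>C + 0.5)) in genes with a mean of at least 50 reads in each group, in R 4.3.3, each on all genes with Benjamini-Hochberg adjustment at 0.05. SE is the fold change divided by the root of F, and 95% intervals follow from the SE by the normal distribution. CPM were scaled within each comparison. Shares and tables were computed with Python 3.11.15 and pandas 2.3.3. The scripts were tested on simulated data. Intervals and limits from 0 reads (3 reads) cover counting error only. Depth is given with the results.

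Groups were taken from the labels, and libraries within a numbered experiment were treated as replicates, so that p-values measure the spread between libraries, which may be technical. Same-numbered libraries deviated together in every pair (correlation over 0.1) for dTAG in AsPC-1 (0.264 to 0.544) and T3M-4 (0.167 to 0.453), CB-6644 in T3M-4 (0.163 to 0.435) and CB-6644 at 12 h (0.33 to 0.65), which were taken as paired, and not for CB-6644 at 4 h in AsPC-1 or NVP-2 in T3M-4. In several of these pairs the library of closest deviation carried another number, so the number need not mark a pair. The main fits did not use the block.

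Members and lists were chosen with earlier results of these data known. Named genes were the 5 highest and lowest shares per line, up to 10 called genes by p (otherwise 3) per comparison, the 5 largest folds each way between lines and for NVP-2 in all reads, isoform families and NDUFA1, NDUFB10 and UQCRC2, and other genes named were chosen after their values were seen. Alternatives were DESeq2 1.42.0, no filter, library sizes from all reads, summed counts, a replicate block, other controls and left-out libraries. The low DCLK1 libraries, centring shares on the median gene within a line, single experiments and batches for all reads and shares, and batch as a term for NVP-2 were added after the data were seen. The values of 1 member that the rule names are not reported here, and it is counted in every count and median.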

Additional observations from a re-analysis of the deposited data

Results flagged for a closer look

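Among 80 groups of 4 to 10 libraries, 3 had a labelled share in 1 library that lay far from the others (Dixon's test), where chance would flag about 1 in 20, or 4. NDUFA11 had a highest library at 2.906% in AsPC-1 DMSO. NDUFB7 had a highest library at 0.1771% and NDUFS7 a lowest at 0.1349% in T3M-4 NVP-2. The response of NDUFA4 to NVP-2 in T>C reads differed between the lines by −3.24 (T3M-4 minus AsPC-1, SE 0.51, edgeR's interaction term, adjusted p = 0.00298). Batch differs between the AsPC-1 groups of this test, and with batch as a term the difference was −2.63 (edgeR adjusted p = 0.00741). Background T>C reads of NDUFA4 were not measured in either line, and their part was not tested.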

How the results depend on the processing

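Of 331 values of counts and medians under alternatives, 294 stayed close to the main value, 22 were weaker, 10 stronger and 5 reversed. Counts of 0 that stayed at 0 are among the 294. Of 1683 values of named genes, 1460 kept their direction and side of the threshold, 182 were weaker, 16 stronger and 25 reversed. The causes were not tested except where the alternative itself fixes them. Counts without a share of all genes show how far the number of calls moved, not how members stand to other genes. With library sizes from all reads, members called in T>C reads after NVP-2 numbered 68 in AsPC-1 in place of 33 and 66 in T3M-4 in place of 23, all lower, and after dTAG in AsPC-1 from 0 to 2, with a median of −0.16. With summed counts, 13 and 0 members were called after NVP-2. In all reads after NVP-2, AsPC-1 gave 23 calls by DESeq2, 0 against NEG of experiment 3, 0 against DMSO at 12 h and 5 in the low DCLK1 libraries, and T3M-4 gave 4 by DESeq2, 11 with batch as a term and 19 in batch 2 alone. Shares centred on the median gene gave 28 and 24 calls after NVP-2, all higher, in place of 68 and 68 lower, and 0 after dTAG in AsPC-1 in place of 15, where the low DCLK1 libraries gave 9, leaving out experiment 1 gave 0 and experiment 2 gave 5, and batch 2 alone gave 0. In the NVP-2 difference between lines DESeq2 called 4 members and edgeR with batch as a term 5, 3 of them higher, in place of 1 lower.

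With the replicate block in the paired dTAG comparison of AsPC-1, 2 members (ATP5F1C and NDUFA4) were called in T>C reads and 10 in shares, and the block changed no other call in the paired comparisons. In T3M-4 NVP-2, where numbers did not pair every library, the block gave 14 calls in all reads.

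Leaving out 1 library at a time gave 25 to 36 members called after NVP-2 in T>C reads, 2 to 23 in all reads (6 without DMSO library 1.1 or NVP-2 library 1.2) and 68 to 69 in shares in AsPC-1, and 21 to 26, 0 to 1 and 65 to 69 in T3M-4. Between lines it gave 27 to 33 in all reads and 4 to 7 in shares, and for the median share 5.046 to 5.459% in AsPC-1 and 5.56 to 6.245% in T3M-4. The other comparisons with 4 or 5 libraries a group gave 0.

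Genes higher on the T>C scale after NVP-2 that were below 0 with library sizes from all reads were, in AsPC-1, ATP5F1C (−0.257), ATP5MC1 (−1.843), COX5A (−1.711), COX5B (−1.797), COX6A1 (−1.546), NDUFS1 (−1.603), NDUFS4 (−1.96) and NDUFS5 (−1.256), and in T3M-4 ATP5F1C (−1.314), ATP5MC3 (−1.165), ATP5MF (−0.826), COX6A1 (−0.616), COX8A (−1.016), NDUFA12 (−1.405), NDUFA2 (−0.451), NDUFB4 (−0.512) and NDUFS5 (−0.914). Shares above 0 once centred were those of ATP5F1B (0.007) and ATP5MG (0.091) after dTAG in AsPC-1, and after NVP-2 of ATP5F1A (0.284), ATP5PB (0.189) and UQCR10 (0.13) in AsPC-1 and of NDUFB9 (0.089), UQCRFS1 (0.043) and UQCRQ (0.31) in T3M-4. T>C reads were fewest after NVP-2, which limits genes such as NDUFB7 and NDUFS7.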
